A study of Mus musculus and Homo sapiens
Mus musculus with 16 samples.

Results

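The 38 Hox cluster genes described here lie in 4 clusters of the mouse genome: 10 in HoxA on chromosome 6, 10 in HoxB on chromosome 11, 9 in HoxC on chromosome 15 and 9 in HoxD on chromosome 2. They were taken as a gene family and followed through the chromatin interactions of the fetal forebrain, out of 20665 autosomal protein-coding genes. An interaction was counted as a Hox interaction when either of its 10 kb bins overlapped the body of a Hox gene by at least 1 bp in mm10, which gave 43 Hox bins. In all, 58543 bin pairs were listed in at least 1 library, and 536 of them were Hox interactions. They were read from 4 libraries of H3K4me3 PLAC-seq, a method that ligates DNA ends lying close together in the nucleus and enriches the ligated fragments with an antibody, here against the promoter mark H3K4me3. The samples were forebrain tissue of mouse fetuses, 2 libraries at E12.5 and 2 at E16.5. The labels give no genotype or treatment of the fetuses, and name a strain (C57BL/6J) only in an extract note on E12.5 replicate 1 that is about adult males and goes against that library's title, stage and tissue labels. They do not say whether animals were pooled or whether replicates are of different litters, and p-values therefore cover the spread among these 4 libraries alone, which may be technical. The other 12 samples of the series were not analysed here.

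Hox genes encode homeodomain transcription factors that give cells their identity along the head-to-tail axis. Within a cluster the genes stand in the order in which they are expressed along that axis, from group 1 genes at the head end to group 13 genes at the tail end. The embryonic hindbrain and spinal cord express them, whereas the forebrain lies ahead of their expression domains. There the clusters are known to be covered by Polycomb complexes, and their promoters can carry H3K4me3 together with the Polycomb mark. In the limb, HoxD genes are known to contact a regulatory landscape on either flank, and the choice of flank follows the position of the gene in the cluster.

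Bins were read along each cluster from the group 1 end to the group 13 end, and a partner outside the cluster was assigned to the flank beside either end. The first and last Hox bins of the clusters spanned chr6:52160001-52270000 for HoxA, chr11:96190001-96370000 for HoxB, chr15:102920001-103040000 for HoxC and chr2:74660001-74770000 for HoxD. A bin often overlaps several members, and these then share their interactions: Hoxb6, Hoxb5 and the long Hoxb3 gene, for example, share a bin. The read depth of the libraries is unknown. A bin pair that is not listed did not pass the authors' threshold in that library and is not known to lack contact.

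The clusters also hold miRNA genes, and the bins of a pair of them were among those that later lost interactions. Mir10a lies in the bin of Hoxb3 and Hoxb4, and Mir10b in the bin of Hoxd3 and Hoxd4. Mir196a-2 lies in a bin of Hoxc10 and Hoxc9, Mir196b in a bin of Hoxa10 alone. The mature sequences are shown because they show which miRNAs of different clusters share a seed. They come from RefSeq on GRCm38.p6 and are given 5′ to 3′ with the seed, bases 2 to 8, in capitals.
miR-10a-5p of the HoxB cluster, chr11:96317186-96317208, plus strand: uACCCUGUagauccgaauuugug
miR-10b-5p of the HoxD cluster, chr2:74726074-74726096, plus strand: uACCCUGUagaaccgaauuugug
miR-196a-5p of the HoxC cluster, chr15:102973365-102973386, plus strand: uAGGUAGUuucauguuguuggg
miR-196b-5p of the HoxA cluster, chr6:52230129-52230150, minus strand: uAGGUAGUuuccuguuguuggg
Of these 4 miRNAs, those of HoxB and HoxD share the seed ACCCUGU and those of HoxA and HoxC the seed AGGUAGU. HoxB also holds Mir196a-1, which gives the same miR-196a-5p and lies in a bin without a Hox gene listed here. Mir615, in the HoxC bin of Hoxc6, Hoxc5 and Hoxc4, has other seeds (GGGGUCC and CCGAGCC). The Mir10a bin had 15 and 11 interactions at E12.5, then 5 and 1 at E16.5. The Mir10b bin had 9 and 6 at E12.5, then 4 and 3 at E16.5. The Mir196a-2 bin had 4 and 3 and then 5 and 4, and the Mir196b bin was listed at 0 in all 4 libraries.

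RefSeq promoters of 300 bases, from 250 before to 50 after the gene's start, could be matched to 22 of the 38 members (24 promoters). They held a median of 14.5 CpG dinucleotides, with a range of 4 to 45, against a median of 7 over all 32851 promoters of the table. Their median GC share was 57.7% against 52.7%. Searched on both strands, where matches of different motifs may share bases, CCAAT was found in 15 of 24 member promoters (62.5%) and in 37.4% of all promoters. TATAAA was found in 4 (16.7%) against 13.6%, and TGATNNAT, a site that Hox proteins can bind with Pbx partners, in 4 (16.7%) against 8.85%. The CTCF core motif was found in 0 of 24 and in 0.0365% of all promoters. The following 4 promoters are shown with CpG in capitals because 3 of them lie in bins with fewer interactions at E16.5 and the last, Hoxd13, lies in the Hox bin with the most interactions.
Hoxb4, chr11:96318017-96318316, plus strand: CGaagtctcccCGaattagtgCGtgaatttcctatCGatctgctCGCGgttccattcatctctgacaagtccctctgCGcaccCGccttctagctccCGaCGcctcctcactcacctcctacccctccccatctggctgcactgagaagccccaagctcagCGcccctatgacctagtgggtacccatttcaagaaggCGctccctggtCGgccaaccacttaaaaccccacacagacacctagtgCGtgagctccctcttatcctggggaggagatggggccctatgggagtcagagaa
Hoxd4, chr2:74721728-74722027, plus strand: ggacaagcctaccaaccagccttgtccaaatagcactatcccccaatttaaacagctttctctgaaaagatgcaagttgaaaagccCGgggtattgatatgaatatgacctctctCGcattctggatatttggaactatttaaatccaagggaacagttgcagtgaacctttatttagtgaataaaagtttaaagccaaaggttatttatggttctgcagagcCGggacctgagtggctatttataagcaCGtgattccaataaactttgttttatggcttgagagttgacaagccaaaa
Hoxa11, chr6:52245761-52246060, minus strand: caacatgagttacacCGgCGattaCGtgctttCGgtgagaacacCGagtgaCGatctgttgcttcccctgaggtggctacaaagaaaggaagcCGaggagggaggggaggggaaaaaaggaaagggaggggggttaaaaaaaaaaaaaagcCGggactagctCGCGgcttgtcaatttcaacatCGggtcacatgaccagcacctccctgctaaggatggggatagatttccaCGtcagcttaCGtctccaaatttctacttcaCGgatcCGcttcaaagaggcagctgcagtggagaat
Hoxd13, chr2:74667975-74668274, plus strand: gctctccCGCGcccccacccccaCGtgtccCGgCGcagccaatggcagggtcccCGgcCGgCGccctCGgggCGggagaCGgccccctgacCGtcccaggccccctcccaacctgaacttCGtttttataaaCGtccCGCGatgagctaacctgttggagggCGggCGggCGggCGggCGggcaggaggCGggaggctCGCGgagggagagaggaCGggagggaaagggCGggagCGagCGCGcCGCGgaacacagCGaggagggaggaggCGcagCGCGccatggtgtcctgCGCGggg
The Hoxd4 promoter held 4 CpG, the Hoxb4 promoter 14, the Hoxa11 promoter 15 and the Hoxd13 promoter 37. Over these 4 promoters the one of Hoxd13 held the most CpG; they were chosen for display after their values were seen and say nothing of the rest.

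Hox interactions took a smaller part of the list at E16.5 than at E12.5 in every cluster. The E12.5 libraries listed 352 and 220 Hox interactions and the E16.5 libraries 300 and 200, so the raw numbers of the stages overlapped. The whole lists held 18413 and 16075 interactions at E12.5, then 35291 and 36794 at E16.5. As a share of the list, Hox interactions made up 1.91% and 1.37% at E12.5, then 0.850% and 0.544% at E16.5. The mean share was 1.64% ± 0.384 (SD, n = 2) at E12.5 and 0.697% ± 0.217 (SD, n = 2) at E16.5, a 2.35-fold lower share. Shares of the stages did not overlap, but the two-sided exact permutation p was 0.333, the smallest that 2 libraries against 2 can give. In bulk tissue, fewer cells with a contact and a weaker contact per cell cannot be told apart. Replicate 1 listed 1.6 times as many Hox interactions as replicate 2 at E12.5 and 1.5 times as many at E16.5, against 1.15 and 0.959 times for the whole lists. The difference between libraries of the same stage was therefore larger for Hox bins than for the lists as a whole.

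HoxB had the largest fold difference in share of the 4 clusters. It had 121 and 70 interactions at E12.5, then 76 and 44 at E16.5, a 3.26-fold lower share. HoxC had 61 and 32 and then 51 and 30, a 2.35-fold lower share, and HoxA had 65 and 44 and then 60 and 41, a 2.23-fold lower share. HoxD had 105 and 74 and then 113 and 85, a 1.87-fold lower share. It was the sole cluster whose mean raw number was higher at E16.5, 99 ± 19.8 (SD, n = 2) against 89.5 ± 21.9 (SD, n = 2), a difference within the spread between replicates. The differences between clusters were not tested.

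**Figure D1:**
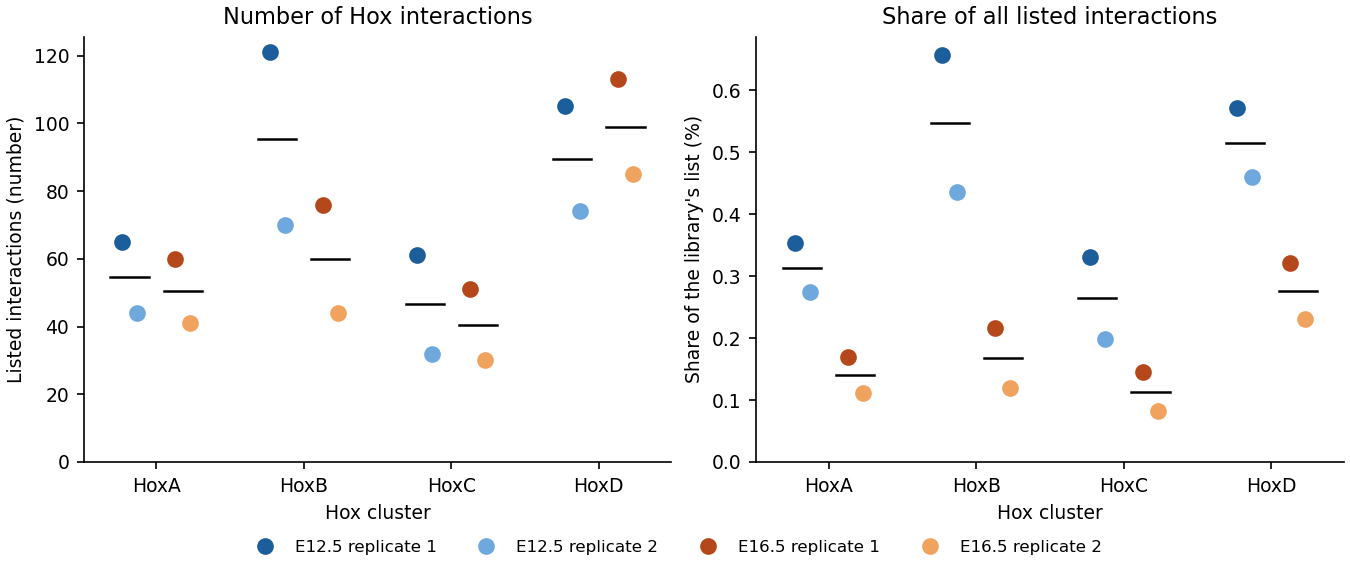
Listed Hox interactions per library (left, number) and their share of the library's list (right, percent) for the 4 clusters. Each point is a library and each bar the mean of 2 libraries; raw numbers overlap between stages in every cluster, and shares do not, with HoxB going from 0.657% and 0.435% to 0.215% and 0.120%.

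Contacts were also followed as pairs of bins. Of the 536 Hox pairs, 82 were listed in all 4 libraries (15.3%), against 11.7% of all listed pairs. HoxD held 37 of these, HoxC 19, HoxA 16 and HoxB 10. Of 152 Hox pairs listed in both E12.5 libraries, 48 were in neither E16.5 list (31.6%), against 11.3% over all pairs. In HoxB this was 28 of 41 (68.3%), in HoxA 7 of 31 (22.6%), in HoxD 11 of 54 (20.4%) and in HoxC 2 of 26 (7.69%). The converse, listed in both E16.5 libraries and in neither E12.5 list, held for 27 of 163 Hox pairs (16.6%), against 42.9% over all pairs. The turnover thus ran against that of the lists as a whole, and HoxB pairs made up 28 of the 48 that were listed at E12.5 alone.

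Along the clusters, interactions at E16.5 were fewest relative to E12.5 at the Hoxb1 to Hoxb4 end of HoxB. There were 37 Hox bins with at least 10 interactions in the sum of the 4 libraries. Of these, 13 had fewer interactions in both E16.5 libraries than in either E12.5 library, and 1 had more. Over all 4758 such bins of the genome, 5.59% were lower in this way and 53.2% higher. The bin that was higher held Hoxa9, with 8 and 4 interactions at E12.5, then 9 and 9 at E16.5. The other 23 bins overlapped between stages.

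In the test of contact number, 8 of the 32 Hox bins tested fell at E16.5 and none rose. The test was edgeR's quasi-likelihood test with Benjamini-Hochberg adjustment over 2449 bins that hold an end of a protein-coding gene, and a change is relative to the total of each library. Over all of these bins 2.16% were called lower and 7.39% higher at an adjusted p under 0.05. The 8 include the bins of Hoxb2 and of Hoxa10 and Hoxa11, which were listed at 0 in both E16.5 libraries and so entered the test through E12.5 alone; for these only values are given. The log2 change was negative in all 32 Hox bins tested, beside 42.7% of all bins tested, with a median of -0.88 against 0.19 over all bins tested. It was negative in 22 of 32, with a median of -0.39, without E12.5 replicate 1. Without E16.5 replicate 2 it was negative in 26 of 32, with a median of -0.51. Bins of a cluster share partner bins and are not independent. At an unadjusted p under 0.05 there were 12 Hox bins, all lower, beside 596 of all 2449 bins in either direction. Of the 8 bins that fell, 4 were in HoxB, 2 in HoxA, 2 in HoxD and 0 in HoxC, where none of 8 tested bins passed. With DESeq2, 2 of the 32 bins were called lower and 0 higher, against 0.327% called lower over all bins. The calls depended on the libraries: leaving out E12.5 replicate 1 gave 3 and leaving out E12.5 replicate 2 gave 7, while leaving out either of the E16.5 libraries gave 0 Hox calls and 0 calls in either direction over all 2449 bins. With all 4758 bins of any kind in the test, no bin of the genome passed in edgeR, Hox bins included. There, 14 of 37 Hox bins and 939 of all 4758 had an unadjusted p under 0.05. When the quasi-dispersion was kept from falling below 1, no Hox bin of 32 passed in edgeR. Over all bins, 4 were then called lower and 20 higher. At an unadjusted p under 0.05 there were 11 of the 32 Hox bins and 500 of all 2449.

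In HoxB the fall ran over adjoining bins. The bin of Hoxb3 and Hoxb4, whose genes are expressed in the hindbrain and spinal cord, had 15 and 11 interactions at E12.5, then 5 and 1 at E16.5. All E16.5 values lay below all E12.5 values, a 6.95-fold relative fall (log2 change -2.80, SE 0.51, adjusted p = 0.0154, edgeR). The log2 change was -4.29 without E16.5 replicate 1 (adjusted p = 0.155, edgeR) and -2.04 without E16.5 replicate 2 (adjusted p = 0.0813, edgeR), so either omission ended the call. The next bin, of Hoxb6, Hoxb5 and Hoxb3, had 21 and 16 and then 12 and 5, a 3.60-fold relative fall (log2 change -1.85, adjusted p = 0.0254, edgeR). Its raw numbers did not overlap either, and its log2 change was -2.65 when E16.5 replicate 1 was left out and -1.31 when replicate 2 was, neither past the threshold. The Hoxb2 bin had 8 and 2 at E12.5 and was listed at 0 in both E16.5 libraries, so no fold is given. Hoxb2 is a gene of hindbrain segments. The Hoxb13 bin, at the far end of the cluster, had 5 and 4 and then 1 and 1 (log2 change -2.73, SE 0.70, adjusted p = 0.0423, edgeR). Its sum of 11 was close to the least needed for the test and came mainly from E12.5. With all bins in the test its adjusted p was 0.0684 (edgeR). All of its E12.5 partners lay inside the cluster, and its outside partners numbered 0 and 0 and then 1 and 1. Some of these inside pairs also count in the bins of Hoxb3 and Hoxb4 and of Hoxb2, so these falls are not independent.

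The middle of Hoxb3 lies in a bin that holds no gene end and so was outside that test. It had 13 and 7 interactions at E12.5, then 1 and 0 at E16.5. In the test of all bins its log2 change was -4.61 (unadjusted p = 0.000861, adjusted p = 0.0588, edgeR). The last bin of Hoxb3 had 9 and 2 and then 1 and 0 (adjusted p = 0.0557, edgeR). A second bin of Hoxb3 and Hoxb4 had 4 and 2 and then 2 and 1, so its stages touched, and its sum of 9 kept it out of both tests. Neither of the tested bins passed the threshold.

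The bin of Hoxb8 and Hoxb7 and the bin of Hoxb9 and Hoxb8 differed from these in their values. The bin of Hoxb8 and Hoxb7 had 20 and 16 interactions at E12.5, then 25 and 19 at E16.5, and the bin of Hoxb9 and Hoxb8 had 14 and 8 and then 20 and 12. These did not pass the test, with adjusted p of 0.425 and 0.808 (edgeR), and their raw numbers overlapped. The bin of Hoxb7 and Hoxb6 had 17 and 8 and then 9 and 5, values closer to those of the bins that fell (log2 change -1.56, adjusted p = 0.0634, edgeR). It did not pass either, and its raw numbers overlapped. The Hoxb1 bin was listed at 0 in all 4 libraries, which made Hoxb1 the one member of 38 with no listed interaction. Grouped by position, the HoxB bins with groups 1 to 4 alone had 49 and 24 interactions at E12.5, then 9 and 2 at E16.5, and those with any of groups 5 to 8 had 72 and 48 and then 66 and 41. As a share of the list, the E16.5 mean was 0.0745 times the E12.5 mean for the first and 0.433 times for the second. The difference between positions was not tested.

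In HoxA the bin that passed the test and had interactions at both stages lay at the group 13 end. The bin of Hoxa10 and Hoxa11, genes of the limb and reproductive tract, had 8 and 4 interactions at E12.5 and none listed at E16.5. The neighbouring bin of Hoxa13, a gene of the digits and hindgut, had 7 and 4 and then 1 and 1 (log2 change -3.02, SE 0.69, adjusted p = 0.0283, edgeR). Its sum of 13 was close to the 10 needed for the test and came mainly from E12.5. With all bins in the test its adjusted p was 0.0592 (edgeR). The last Hoxa13 bin had 6 and 9 and then 8 and 2, and overlapped between stages (adjusted p = 0.207, edgeR). In the middle of the cluster, the busiest bin, of Hoxa3, Hoxa5 and Hoxa6, had 9 and 6 and then 12 and 8, and did not pass (adjusted p = 0.746, edgeR). The Hoxa9 bin, higher in raw numbers, did not pass either (adjusted p = 0.897, edgeR). The Hoxa7 bin had 7 and 5 and then 8 and 4, and the bin of Hoxa2 and Hoxa3 had 3 and 2 and then 3 and 4. The Hoxa4 bins with Hoxa3 had 10 and 5 and then 11 and 8, and 1 and 1 and then 2 and 1. A bin of Hoxa10 alone was listed at 0 in every library.

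HoxD fell in the part that holds Hoxd3 and Hoxd4. Its group 3 bins at the Hoxd1 end had 9 and 9 interactions at E12.5, then 4 and 4 at E16.5 in one, a 3.67-fold relative fall (log2 change -1.87, SE 0.38, adjusted p = 0.0238, edgeR), and 6 and 9 and then 4 and 4 in the other. The bin of Hoxd3 and Hoxd4 had 9 and 6 and then 4 and 3, a 3.48-fold relative fall (adjusted p = 0.0422, edgeR). These were the bins whose numbers did not overlap between stages. The first Hoxd3 bin, next to Hoxd8, had 9 and 6 and then 14 and 9 (adjusted p = 0.913, edgeR). The Hoxd13 bin had the highest sum of all Hox bins, 81 over the 4 libraries, with 21 and 17 at E12.5, then 22 and 21 at E16.5 (adjusted p = 0.269, edgeR). This bin also holds an end of Evx2, the gene beside the cluster, so its interactions cannot be credited to Hoxd13 alone. Hoxd13 is a gene of digit and genital development. The bin of Hoxd13, Hoxd12 and Hoxd11 had 11 and 3 and then 13 and 10, and that of Hoxd11 and Hoxd10 had 17 and 8 and then 21 and 12. The Hoxd1 bin had 0 and 1 and then 3 and 1.

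In HoxC no bin passed the test, and all 11 bins had interactions. The Hoxc9 bin had the most, 9 and 3 at E12.5, then 13 and 5 at E16.5. The Hoxc12 bin had the fewest, 6 and 1 and then 1 and 1, a sum of 9. The bin of Hoxc6, Hoxc5 and Hoxc4 had 7 and 4 and then 3 and 4 (log2 change -1.36, adjusted p = 0.182, edgeR), and the last bin of Hoxc4 had 5 and 3 and then 2 and 1 (log2 change -2.05, adjusted p = 0.106, edgeR). The middle bin of Hoxc4 had 3 and 3 and then 2 and 2, and these 2 Hoxc4 bins were the HoxC bins without overlap between stages. The bin of Hoxc8 and Hoxc6 had 7 and 3 and then 5 and 3. The Hoxc11 bin had 5 and 3 and then 3 and 2, and the Hoxc13 bin 7 and 2 and then 5 and 2. The Hoxc10 bin had 4 and 3 and then 8 and 3.

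Interactions inside a cluster were listed at E12.5 and not at E16.5. There were 19 and 9 of them at E12.5, then 0 and 0 at E16.5, or 5.40% and 4.09% of the Hox interactions at E12.5. The difference in share was 4.74 percentage points, larger than the spread between replicates (exact permutation p = 0.333, the smallest possible). HoxB held 19 of the 28, HoxC 5, HoxD 3 and HoxA 1. In 3 cases the same bin pair was listed in both E12.5 libraries. Hoxd9 and Hoxd10 shared a bin that was paired with a Hoxd3 bin 50 kb away by 115 and 92 read pairs. Hoxb13 was paired with the bin of Hoxb3 and Hoxb4, 120 kb away, by 44 and 36 read pairs, and with the middle of Hoxb3, 140 kb away, by 42 and 36. The Hoxb13 bin thus reached across the gap between Hoxb9 and Hoxb13, and 9 of its 11 interactions were inside the cluster. The other inside pairs were listed in 1 library each.

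The HoxD cluster had its partners on both flanks, and the flank changed along the cluster. Of the outside interactions of the Hoxd13 bin, 97.5% lay on the group 13 flank, and in the bin of Hoxd13, Hoxd12 and Hoxd11 89.2%. In the bin of Hoxd11 and Hoxd10 the share was 59.6%, in that of Hoxd10 and Hoxd9 15.2% and in that of Hoxd9 and Hoxd8 2.38%. In the first Hoxd3 bin, in the bin of Hoxd3 and Hoxd4 and in the Hoxd1 bin it was 0%, and in the remaining Hoxd3 bins 4.35%. The switch lay at Hoxd11 and Hoxd10 at both stages. That bin had 12 and 4 interactions on the group 13 flank at E12.5, then 12 and 6 at E16.5, against 5 and 3 and then 9 and 6 on the group 1 flank. Over the cluster, the group 13 flank took 41.9% and 35.1% at E12.5, then 41.6% and 45.9% at E16.5, values that overlapped between stages (exact permutation p = 0.667).

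Most partners on the group 13 flank of HoxD, 130 of 156, lay in the interval between Atp5g3 and Lnpk, with 39 and 20 interactions at E12.5, then 42 and 29 at E16.5 over 23 partner bins 350 to 730 kb away. The group 1 flank had its partners between Mtx2 and Gm50595, with 37 and 31 and then 32 and 21, and in Gm50595, with 23 and 15 and then 32 and 25. The partner bins with the most HoxD interactions lay in these. The bin at chr2:75130001-75140000, between Mtx2 and Gm50595, had 8 and 7 and then 8 and 7, from 9 of the 10 HoxD bins. The bin at chr2:75590001-75600000 in Gm50595 had 7 and 6 and then 8 and 9, from all 10 bins. The others by the same rule were the neighbouring bins in Gm50595 (7 and 4 and then 7 and 7, and 4 and 3 and then 7 and 4) and those between Mtx2 and Gm50595 (7 and 7 and then 5 and 4, and 3 and 4 and then 5 and 3). Of 55 partner bins, 40 overlapped no protein-coding gene (72.7%). The share was 73.7% for the partner bins of HoxC, 28.2% for HoxA and 13.5% for HoxB. Over all listed bins, which include both bins of each pair, it was 39.0%.

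HoxA switched flank once, between Hoxa9 and Hoxa11. The bins of Hoxa2 to Hoxa9 had 0% of their outside partners on the group 13 flank, the bin of Hoxa10 and Hoxa11 54.5%, and the Hoxa13 bins 92.3% and 92.0%. On the group 1 flank the partners lay in Skap2, a gene of a cytosolic adaptor protein, with 34 and 20 interactions at E12.5, then 25 and 24 at E16.5. The next place was the interval between Npvf and Gm38821, with 11 and 7 and then 14 and 10. These lay 940 to 990 kb from the cluster, at the edge of the 1000 kb that the files cover, so more distant partners could not have been listed. On the group 13 flank the partners in Jazf1, a gene of a zinc finger protein, numbered 12 and 11 at E12.5, then 3 and 0 at E16.5. The stages did not overlap there. The share of HoxA interactions on the group 13 flank was 21.5% and 34.1% at E12.5, then 15.0% and 7.32% at E16.5, which did not overlap either (exact permutation p = 0.333, the smallest possible).

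The named HoxA partner bins were 5 in Skap2 and 1 between Npvf and Gm38821. The bin at chr6:52010001-52020000 in Skap2 had 6 and 6 interactions at E12.5, then 5 and 6 at E16.5, from 9 of the 11 HoxA bins, and the bin beside it 8 and 4 and then 5 and 5. The other Skap2 bins had 4 and 4 and then 4 and 3, 4 and 1 and then 4 and 4, and 3 and 3 and then 2 and 3. The bin at chr6:51200001-51210000, between Npvf and Gm38821, had 4 and 2 and then 5 and 3.

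HoxB interacted almost throughout with its group 1 flank. This flank held 80.2% and 81.4% of the HoxB interactions at E12.5 and 100% in both E16.5 libraries. Skap1, a gene of a T cell adaptor protein and the counterpart of Skap2 beside HoxA, had 73 and 41 interactions at E12.5, then 40 and 23 at E16.5. Copz2, a gene of a vesicle coat subunit, had 15 and 10 and then 14 and 12. The Skap1 numbers of E16.5 lay below those of E12.5, by 1 interaction at the closest, and the Copz2 numbers overlapped. Snx11 had 5 and 2 and then 7 and 4, and Cbx1 had 0 and 2 and then 5 and 3. On the group 13 flank the sole partners lay between Ttll6 and Hoxb13, beside the cluster, with 11 and 7 at E12.5, then 0 and 0 at E16.5.

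Among the named HoxB partner bins, the Copz2 bins had the most interactions, 5 and 4 at E12.5, then 5 and 7 at E16.5 in one and 6 and 5 and then 6 and 3 in the other. The Skap1 bins had 7 and 5 and then 2 and 2, 7 and 4 and then 1 and 2, 4 and 2 and then 4 and 4, and 7 and 3 and then 2 and 1. The Skap1 bins 170, 180 and 300 kb from the cluster were lower in both E16.5 libraries, and the bin 250 kb away was not.

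HoxC had the shortest reach and the fewest partners. The median distance of its pairs was 190 kb, against 365 kb for HoxA, 350 kb for HoxB, 640 kb for HoxD and 280 kb over all listed pairs. Its 6 named partner bins took 79.3% of its outside interactions. The bin at chr15:103170001-103180000, between Smug1 and Cbx5, was paired with all 11 HoxC bins and had 11 and 11 interactions at E12.5, then 10 and 9 at E16.5. The bin at chr15:103160001-103170000 in Smug1, a gene of a DNA repair glycosylase, was also paired with all 11 and had 9 and 10 and then 11 and 10. The next bin between Smug1 and Cbx5 had 7 and 5 and then 3 and 6, and another bin in Smug1 had 6 and 2 and then 3 and 0. Between Calcoco1 and Hoxc13, on the group 13 flank, the named bins had 6 and 0 and then 5 and 2, and 4 and 1 and then 3 and 0. That interval as a whole had 14 and 1 and then 14 and 4, so it was high in replicate 1 and low in replicate 2 at both stages. The group 13 flank took 0% to 22.2% of the outside interactions in the bins of Hoxc4 to Hoxc8 and 16.7% to 38.9% in those of Hoxc9 to Hoxc13. In no HoxC bin did it take more than the group 1 flank.

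**Figure D2:**
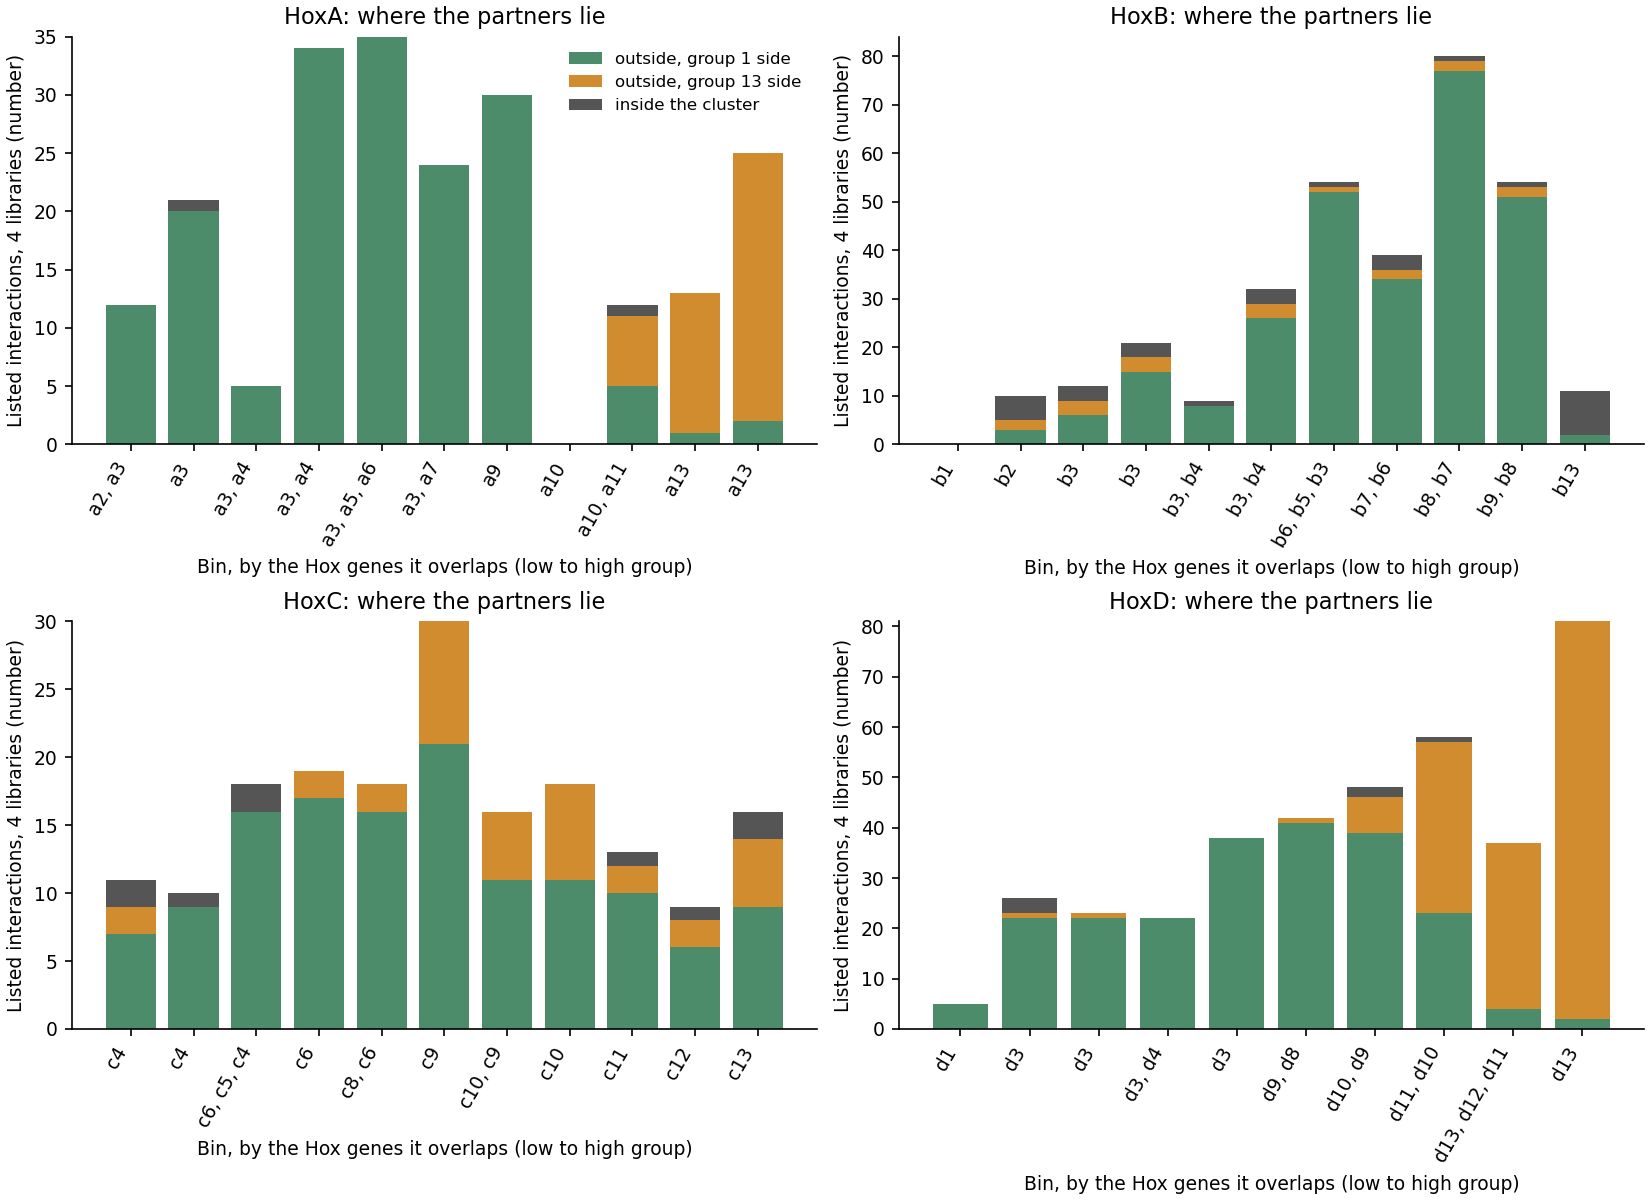
Outside partners on the group 1 flank and on the group 13 flank and partners inside the cluster, as numbers of listed interactions summed over the 4 libraries, for each Hox bin. In HoxD the group 13 flank takes 97.5% of the outside partners of the Hoxd13 bin and 2.38% of those of the bin of Hoxd9 and Hoxd8; in HoxB nearly all bins have their partners on the group 1 flank.

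**Figure D3:**
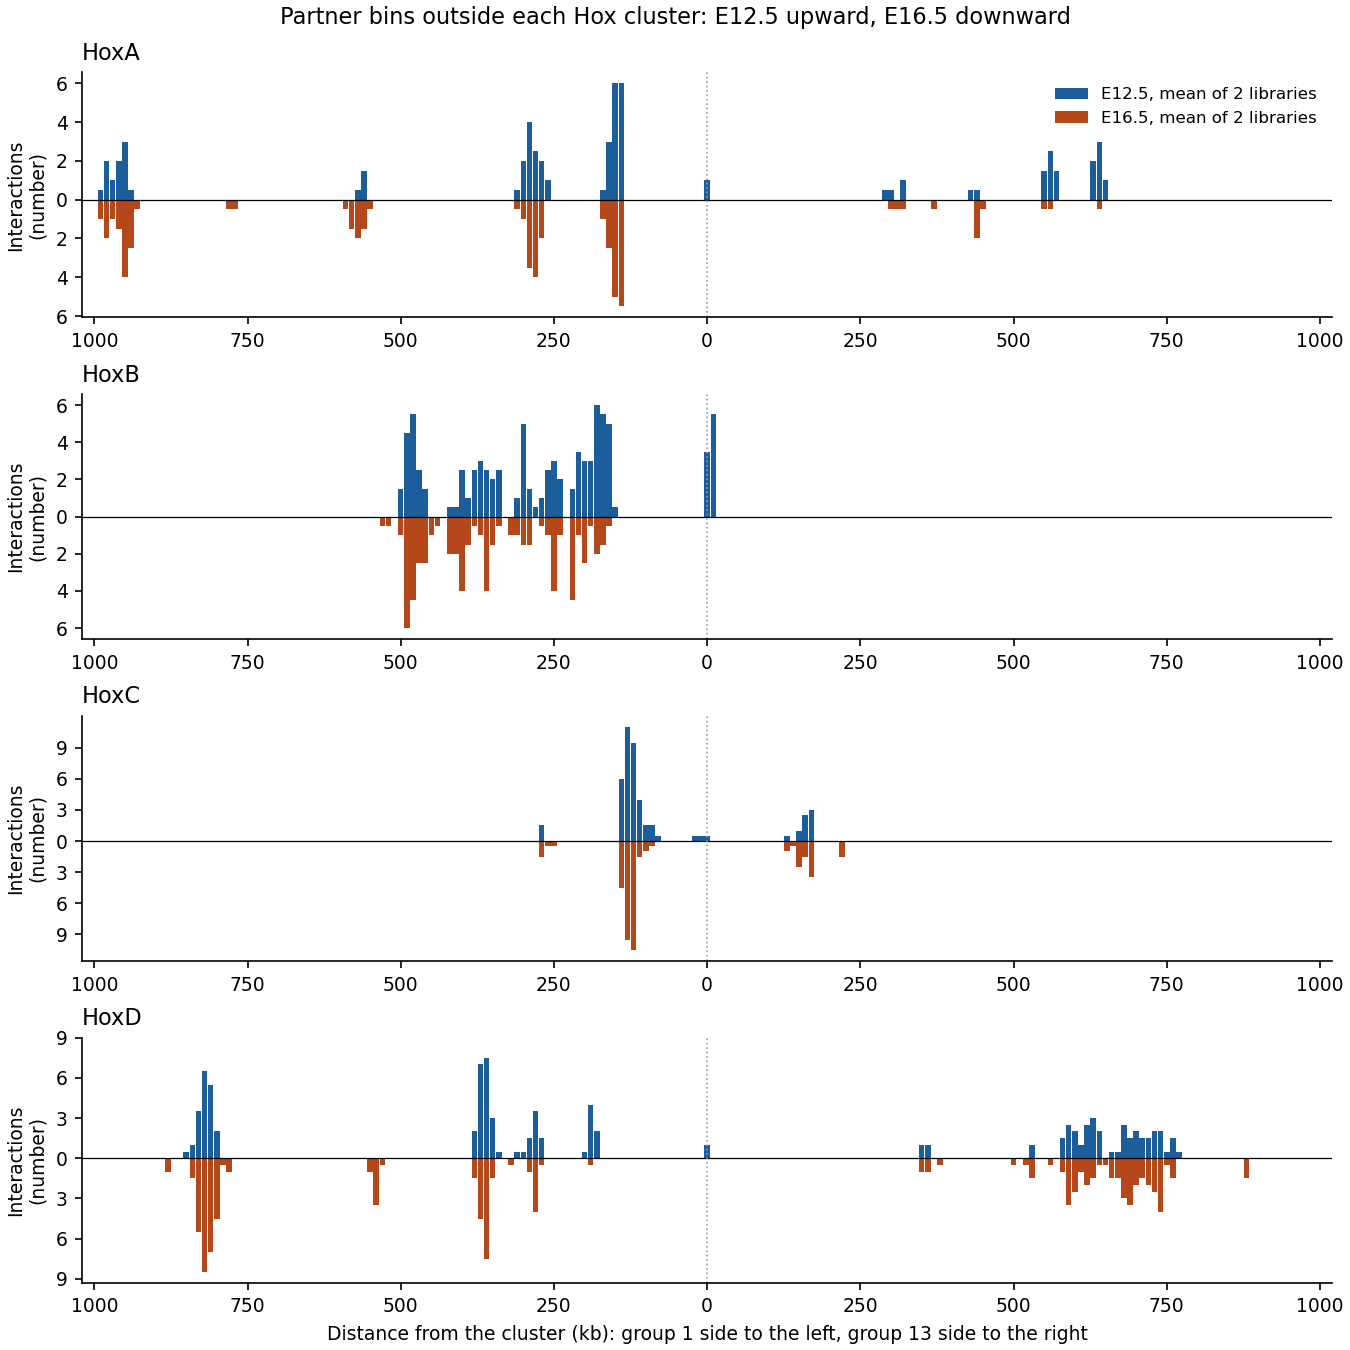
Number of Hox interactions of each partner bin against its distance from the cluster in kb, as the mean of 2 libraries at E12.5 (upward) and at E16.5 (downward). Partners form separate groups, such as Skap2 140 to 300 kb and the interval near Npvf 940 to 990 kb from HoxA, and the Jazf1 group 550 to 650 kb on the other flank is taller at E12.5.

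Contact strength, the number of read pairs behind a pair, could be compared for the 82 Hox pairs listed in all 4 libraries. The strongest contacts of each cluster did not pass the test. Hox pairs were called lower at a share of the same order as all pairs. The test was edgeR's quasi-likelihood test over 6875 pairs, of which 4.58% were called lower and 5.88% higher at E16.5. Of the 82 Hox pairs 3 were called lower and 0 higher, a share of the same order as the background. At an unadjusted p under 0.05 there were 14 of 82 in either direction, beside 1583 of all 6875 pairs. DESeq2 called 0 of the Hox pairs, beside 39 lower and 59 higher over all pairs. The log2 change was negative in 64 of 82, beside 50.8% of all pairs, with a median of -0.29 against -0.01 over all pairs. Without E12.5 replicate 1 it was negative in 47 of 82, with a median of -0.07, and with the authors' expected count as an offset in 50 of 82, with a median of -0.13. In HoxC it was negative in 18 of 19, in HoxD in 28 of 37, in HoxA in 10 of 16 and in HoxB in 8 of 10. Many pairs share a bin and are not independent, and these counts were not tested. All of the HoxC pairs ended in adjoining bins in Smug1 or between Smug1 and Cbx5, and many HoxD pairs shared the Hoxd13 bin.

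The Hox pairs called lower are given for their values, since their share was near that over all pairs. The first joined the bin of Hoxd9 and Hoxd8 with the partner bin at chr2:75130001-75140000, between Mtx2 and Gm50595. It had 28 and 26 read pairs at E12.5, then 18 and 16 at E16.5, without overlap, and fell 2.03-fold relative to the library (log2 change -1.02, SE 0.28, adjusted p = 0.0153, edgeR). The second joined the bin of Hoxd13 and Evx2 with a bin between Atp5g3 and Lnpk 610 kb away. It had 29 and 22 and then 22 and 10, so the stages touched at 22 (log2 change -1.03, SE 0.30, adjusted p = 0.0186, edgeR). The log2 change was -1.64 when E16.5 replicate 1 was left out and -0.62 when replicate 2 was, which ended the call (adjusted p = 0.341, edgeR). The last joined the bin of Hoxc10 and Hoxc9, which also holds Mir196a-2, with the Smug1 bin. It had 38 and 40 and then 26 and 29, without overlap (log2 change -0.86, SE 0.27, adjusted p = 0.0254, edgeR). Leaving out E12.5 replicate 1 or E16.5 replicate 2 ended every call on a Hox pair. Leaving out E12.5 replicate 2 left 1, and leaving out E16.5 replicate 1 gave 4. With the authors' expected count as an offset no pair of the 6875 was called in edgeR. There, 10 of 82 Hox pairs and 688 of all 6875 had an unadjusted p under 0.05.

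The contacts with the most read pairs were as follows. In HoxA the pair of the Hoxa2 and Hoxa3 bin with the interval between Npvf and Gm38821, 990 kb away, had 73 and 73 read pairs at E12.5, then 83 and 43 at E16.5. These counts were 9.38 to 16.6 times the authors' expected count. The Skap2 contacts had 73 and 55 and then 69 and 45 from the bin of Hoxa3, Hoxa5 and Hoxa6, and 70 and 43 and then 58 and 59 from a bin of Hoxa3 and Hoxa4. Adjusted p-values of these were 0.103, 0.143 and 0.457 (edgeR), and raw values overlapped.

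In HoxB the bin of Hoxb8 and Hoxb7 was paired with Copz2 by 24 and 24 read pairs and then 43 and 37, higher in both E16.5 libraries in raw numbers (log2 change 0.37, SE 0.27, adjusted p = 0.430, edgeR). It was paired with Skap1 by 36 and 26 and then 28 and 21 (adjusted p = 0.0876, edgeR). The bin of Hoxb9 and Hoxb8 was paired with Copz2 by 21 and 14 and then 38 and 16 (adjusted p = 0.671, edgeR). None of these contacts passed.

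In HoxC the Smug1 bin was paired with the bin of Hoxc6, Hoxc5 and Hoxc4 by 67 and 72 read pairs and then 95 and 76. With Hoxc6 it had 68 and 53 and then 68 and 61, and with Hoxc9 54 and 53 and then 84 and 54. None passed, with adjusted p of 0.893, 0.510 and 0.999 (edgeR). In HoxD, the bin of Hoxd13 and Evx2 was paired with a bin between Atp5g3 and Lnpk 600 kb away by 38 and 22 and then 34 and 21. With Atp5g3 it was paired by 26 and 24 and then 28 and 31. The bin of Hoxd10 and Hoxd9 was paired with the bin between Mtx2 and Gm50595 by 33 and 23 and then 29 and 22. These did not pass either, with adjusted p of 0.291, 0.839 and 0.269 (edgeR).

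**Figure D4:**
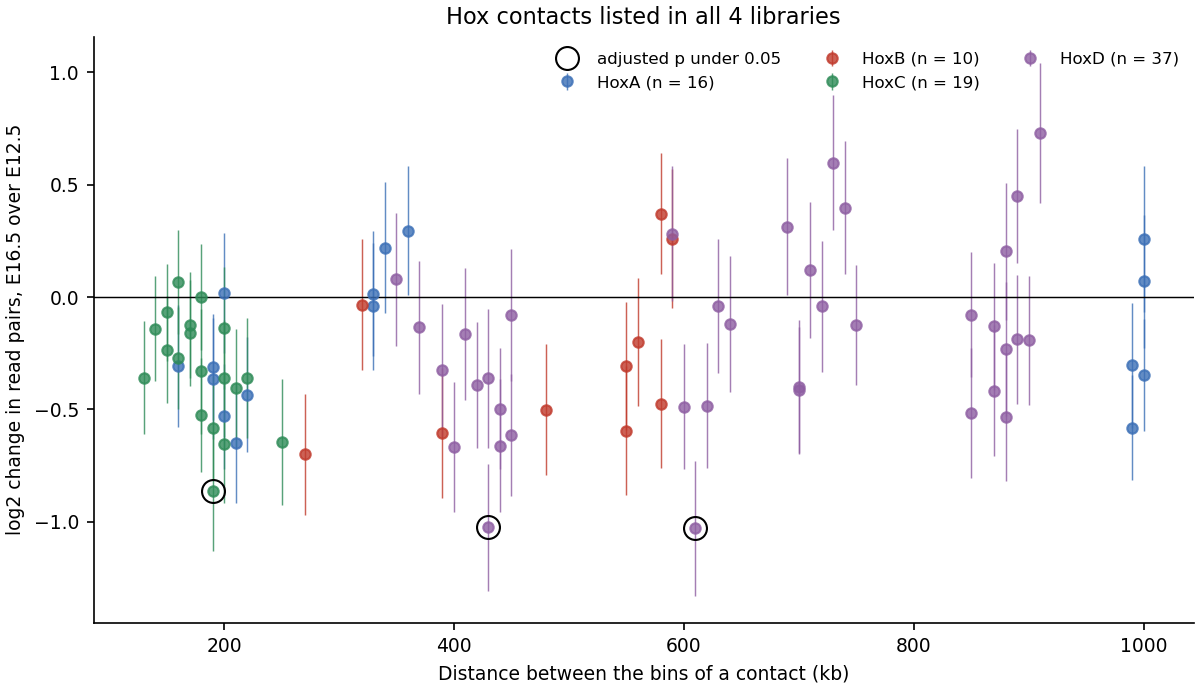
log2 change in read pairs, E16.5 over E12.5, of the 82 Hox contacts listed in all 4 libraries against the distance between their bins in kb, with bars of 1 SE from edgeR. Rings mark the 3 contacts past an adjusted p of 0.05, all lower. The HoxC contacts lie between 130 and 250 kb and 18 of 19 are below 0. Contacts that share a bin are not independent.

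Genes linked to the Hox clusters by function or by position were read in the same test of contact number. For these and the marker lists, the share over all 2449 bins was 7.39% called higher and 2.16% lower. At an unadjusted p under 0.05 there were 596 in either direction. Many listed genes were not tested, and no change or lack of change is known for them. Of 9 Hox cofactor genes, whose proteins bind DNA together with Hox proteins, 5 were tested, and Pbx3 rose from 6 and 5 interactions to 20 and 26 (log2 change 1.30, SE 0.33, adjusted p = 0.0422, edgeR). DESeq2 called none of the cofactor genes. Of 17 Polycomb and Trithorax genes, which keep Hox genes off or on, 6 were tested and none passed (1 higher at an unadjusted p under 0.05, none by DESeq2). Of 17 retinoic acid and caudal regulators, which set where Hox genes are expressed, 8 were tested and none passed (1 higher and 1 lower at an unadjusted p under 0.05 in edgeR, none by DESeq2). Of 29 genes that neighbour the clusters, 12 were tested, among them Evx2, which shares the Hoxd13 bin. None that was listed at both stages passed (1 lower at an unadjusted p under 0.05 in edgeR, none by DESeq2). Atp5g2, on the group 13 flank of HoxC, was listed at 0 and 0 at E12.5 and had 5 and 8 at E16.5, and so entered the test through E16.5 alone; DESeq2 gave it no adjusted p.

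Markers of the tissue and of its neighbours were read beside the Hox values. All 10 forebrain markers were listed, with summed numbers of 164 and 165 at E12.5, then 198 and 174 at E16.5. The 13 midbrain and hindbrain markers outside the Hox clusters had 37 and 32 and then 25 and 22, and En2, Pax5, Pax8, Atoh1 and Gata3 were listed at 0. Per 1000 listed interactions this was 2.01 and 1.99 at E12.5, then 0.708 and 0.598 at E16.5, the direction of the Hox bins. Each other list with any interaction also had a lower mean per 1000 at E16.5. The forebrain list went from 8.91 and 10.3 per 1000 to 5.61 and 4.73, the mesenchyme list from 2.17 and 2.30 to 1.53 and 0.924, and the neural crest list from 0.163 and 0.124 to 0.0567 and 0.0544. Among the 5 hindbrain markers tested, Pax2 fell (8 and 8 and then 0 and 1, adjusted p = 0.0127 in edgeR and 0.0864 in DESeq2). Pax7 had 9 and 4 and then 0 and 0, and so entered the test through E12.5 alone. Among the forebrain markers, 9 were tested. Of these, Tbr1 rose (3 and 3 and then 27 and 20, adjusted p = 0.0205 in edgeR and 0.109 in DESeq2). Emx2 fell relative to the library (48 and 51 and then 29 and 33, adjusted p = 0.00925 in edgeR and 0.00468 in DESeq2). Dlx2 had 19 and 17 and then 16 and 12 (adjusted p = 0.0476 in edgeR and 0.483 in DESeq2). The 12 mesenchyme and meninges markers had 40 and 37 and then 54 and 34, with Twist1, Prrx1 and Col1a2 at 0, and none of 4 tested passed in edgeR or DESeq2 (2 lower at an unadjusted p under 0.05). The 4 neural crest markers had 3 and 2 and then 2 and 2, with Sox10 and Foxd3 at 0, and blood and endothelium markers were listed at 0. The part of these lists in the Hox values was not tested.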

How the data were processed

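H3K4me3 PLAC-seq of fetal forebrain was analysed in 4 libraries, grouped by the stage in their titles. Reads were handled with BWA and SAMtools on mm10, per the submitters' processing notes. Which tool called the interactions, and at which thresholds, is not given in the sources used here. For each called pair of 10 kb bins the deposited files give, per the file headers, a count of read pairs, an expected count and an FDR (a q-value), with calls made per library. All pairs are on the 19 autosomes, 20 to 1000 kb apart. In each library the listed FDR was at most 0.0100 and the count at least 2.00 times the expected count. The extract label of E12.5 replicate 1 describes adult cortex, against its title; the title was followed.

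Counts were used as deposited. Gene bodies were read from RefSeq (GRCm38.p6), whose table gives no strand, so a bin was linked to a gene by either end of the gene. Contact number was the listed interactions per bin, with a sum of at least 10. Contact strength was the read pairs of pairs listed in all 4 libraries. Both were tested with edgeR 4.0.16 in R 4.3.3 (TMM, robust quasi-likelihood, stage as the sole term, Benjamini-Hochberg at 0.05), with DESeq2 1.42.0 beside it. Both edgeR fits were also run on simulated independent counts with more spread than counting alone. Contact numbers here had less spread and bins are not independent, so that run does not vouch for their calls. Each SE was derived from the log2 change and the F value. The median quasi-dispersion was 0.635 for contact number, below the value of 1 that counting alone would give. Shares were compared with two-sided exact permutation tests over the 6 assignments of the libraries. Over shared contacts, replicates differed by more than counting noise (chi-square 1.30 times its degrees of freedom at E12.5 and 1.75 times at E16.5).

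The members, gene lists and tests were chosen with earlier results of these data known. All members were accounted for; per cluster the 6 outside partner bins with the most interactions, the 3 contacts with the most read pairs and any contact past the threshold were named, and of each list the members past the threshold. The alternatives were other normalizations and filters, lists of equal length, an FDR under 0.0001, clusters counted once, distances of at most 200 kb, other overlaps, leaving out each library and a block for the replicate number.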

Additional observations from a re-analysis of the deposited data

How the results depend on the processing

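The lower Hox share at E16.5 kept its direction under every alternative run, for all Hox bins and for each cluster; with distances of at most 200 kb the log2 ratio for all Hox bins moved from -1.23 to -1.80, while for HoxB and HoxD this distance left a library at 0 and gave no value. Leaving out 1 library gave -1.59 to -0.95 for all Hox bins, -1.49 to -0.88 for HoxA, -2.19 to -1.34 for HoxB, -1.70 to -0.82 for HoxC and -1.16 to -0.69 for HoxD. The inside share moved from a difference of -4.74 percentage points to -5.83 with an FDR under 0.0001 and to -11.0 as read pairs, and to between -5.40 and -4.09 with 1 library left out.

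Hox bins called lower in contact number, 8 of 32 tested, became 2 of 32 with DESeq2, 5 of 19 with a sum of at least 20 and 2 of 27 with lists of equal length. Over all bins tested, 53 of 2449 were called lower, then 8 of 2449, 58 of 1115 and 25 of 1464 in these settings. The Hox count was 0 of 32 with a quasi-dispersion of at least 1, where 4 bins of 2449 were called lower and 20 higher. It was 0 of 37 with all bins and 0 of 20 with clusters counted once, where no bin of 4758 and of 887 was called either. Leaving out 1 library gave 0 to 7, and without an E16.5 library no bin of 2449 was called. The count of Hox contacts called lower, 3, became 0 with DESeq2 and 0 with the authors' expected count as an offset; leaving out 1 library gave 0 to 4. No Hox bin or contact was called higher under any alternative run. With the replicate number as a block, which the labels do not say pairs the libraries, 10 of 32 Hox bins and 5 of 82 Hox contacts were called lower. Over all features these were 77 of 2449 bins and 407 of 6875 contacts, for contacts a share of the same order. Deviations of same-numbered libraries correlated at 0.0992 for number and 0.128 for strength. The cause of these changes was not tested. The unknown depth and 2 libraries per stage limit all of these values.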
